A study of Mus musculus with 6 samples.

Results

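Voltage-gated calcium and sodium channels of the hippocampus were read by 70 probe sets for 27 genes, out of 45037 probe sets tested, in mice heterozygous for a p300 deficiency and in wild-type mice. The members were all probe sets annotated with exactly 1 gene symbol of the families Cacna1 (calcium channel alpha1), Cacna2d (alpha2delta), Cacnb (calcium channel beta) and Scn (sodium channel alpha and beta). The group comprised 16 probe sets of 7 high-voltage-activated alpha1 genes, 3 of 2 T-type alpha1 genes, 12 of 4 alpha2delta genes, 9 of 3 calcium channel beta genes, 24 of 8 sodium channel alpha genes and 6 of 3 sodium channel beta genes. Between 1 and 5 probe sets read a gene, and probe sets of 1 gene are repeated readings of that gene and not replicates. The identifiers of 15 of the 70 mark probes that can bind several transcripts (_a, _s or _x).

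The p300+/- group carried 1 deficient allele of p300 on a C57BL/6J background, and the controls were wild-type littermates without it. All animals were 3-month-old females. Each array held hippocampal RNA pooled from 4 animals, with 3 such arrays per genotype (12 animals each). The submitters call the pools of a genotype biologically independent. The deficiency was present in the whole animal, and pools hide the spread between single animals. Each value was a log2 intensity relative to the probe set's own median over the 6 arrays, so a value of 0 is that median and levels of different probe sets cannot be compared.

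The alpha1 subunit of a voltage-gated calcium channel and the alpha subunit of a sodium channel each form the pore and carry the voltage sensors. Sodium channels start and carry the action potential, and calcium channels turn depolarization into calcium entry that triggers transmitter release, dendritic signalling and signalling to the nucleus. Calcium entry through L-type channels leads to phosphorylation of CREB, a transcription factor whose coactivators are CBP and p300. Alpha2delta and calcium channel beta subunits bring calcium channels to the membrane, and sodium channel beta subunits tune gating and act as adhesion molecules.

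Ep300, the gene that encodes p300, was read by 1 probe set, at -0.26, -0.22 and -0.50 in p300+/- and 0.22, 0.38 and 0.40 in wild-type pools. Its log2 fold change was -0.66 ± 0.13 (SE), and no source used here says where in the allele the change lies. Ep300 itself did not pass the test used below (limma, unadjusted p = 0.0010, adjusted p = 0.9999). Of 14 probe sets for principal neurons of the hippocampus (such as Camk2a, Prox1 and Wfs1), 8 were in the highest signal class that the stored values allow, log2 8 to 16, against 0 of 8 for skeletal and heart muscle genes. The class did not single out neurons. It held larger shares of astrocyte (14 of 20), oligodendrocyte (14 of 21), microglial (6 of 8) and choroid plexus (7 of 10) probe sets. Shares were smaller for interneuron (7 of 13), vessel (6 of 12), blood (1 of 2) and thalamic (6 of 19) probe sets. Of the channel probe sets, 28 were in that class, 31 in the class from 4 to 8 and 11 in the class from 2 to 4. Wild-type 2 stood apart in markers of the choroid plexus, a tissue inside the brain ventricles, at a mean of -2.56 against -0.15 to 0.27 in the other arrays.

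No channel gene differed between genotypes past the test. Of the 70 probe sets 0 passed an adjusted p of 0.05 (limma, smallest adjusted p = 0.9999), where 0 of all 45037 passed (0.0%). At an unadjusted p under 0.05 there were 2, Scn2a 1427281_at on the higher and Scn7a 1436043_at on the lower side, against 1.22% of all probe sets (0.77% higher and 0.451% lower). The genotypes did not overlap in 6 channel probe sets, or 8.57%, beside 5.39% of all. Of these, 2 were higher in p300+/- (3.19% of all probe sets) and 4 were lower (2.2% of all). With 3 arrays a side, the smallest two-sided p of an exact permutation is 0.1.

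The genotype differences were small and mixed in sign. Values were higher in p300+/- for 29 and lower for 41 of the channel probe sets, with a median log2 fold change of -0.024, and over all probe sets the median was 0.0057. Their standard errors had a median of 0.18, wider than the 0.15 of all probe sets. Of the 20 genes with more than 1 probe set, 15 had probe sets of both signs. In 4 of these 20 genes every probe set was lower in p300+/-, and in 1, the calcium channel beta subunit gene Cacnb1, every probe set was higher.

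**Figure D1:**
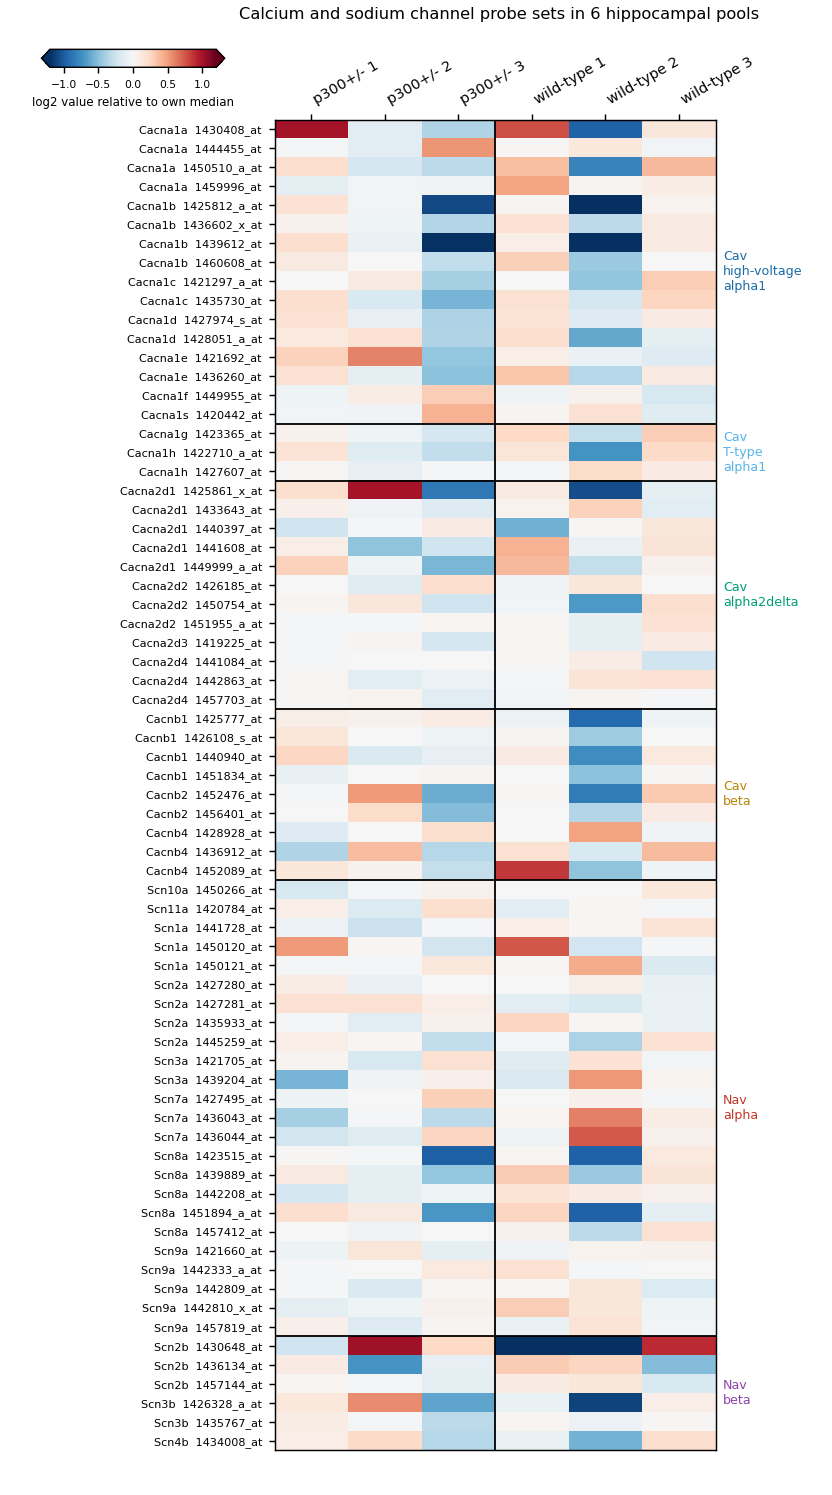
Values of the 70 channel probe sets (rows, grouped by subfamily) in the 6 arrays (columns), as log2 relative to each probe set's own median, with colours saturating beyond 1.2 to either side. Blue cells gather in the columns of p300+/- 3 and wild-type 2, which held the 2 lowest values of 29 of the 70 probe sets.

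The larger differences lay between arrays of the same genotype. P300+/- 3 and wild-type 2 held the 2 lowest values in 29 of 70 channel probe sets (41.4%), against 15.8% of all probe sets. The share differed by signal class. It was 57.1% of channel probe sets against 22.9% of all in the class from 8 to 16, and 41.9% against 16.4% in the class from 4 to 8. In the class from 2 to 4 it was 0 of 11, against 3.8% of all. These arrays were singled out with their values known. Among the 15 possible pairs of arrays the next was p300+/- 2 with wild-type 3, with 7 channel probe sets, against 11.1% of all. The 29 probe sets came from 18 of the 27 genes. They comprised 11 of 16 for high-voltage-activated alpha1 genes, 2 of 3 T-type, 4 of 12 alpha2delta, 4 of 9 calcium channel beta, 5 of 24 sodium channel alpha and 3 of 6 sodium channel beta probe sets. The sodium channel alpha share, 20.8%, was near the 15.8% of all probe sets. The same arrays held the 2 highest values in 10 channel probe sets (14.3%, against 21.3% of all), 6 of them for sodium channel alpha genes.

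Cacna1b, which encodes the pore of the N-type calcium channel of presynaptic terminals, showed the widest such drop in more than 1 probe set. In p300+/- pools 1 to 3 its probe set 1439612_at read 0.20, -0.078 and -1.19, and in wild-type pools 1 to 3 it read 0.078, -1.28 and 0.099. The probe set 1425812_a_at gave 0.17, -0.033 and -1.08 in p300+/- and 0.033, -1.30 and 0.038 in wild-type pools. A single pool of each genotype was thus low by more than 1 log2 unit, at 0.439 and 0.413 times the median in the first of these probe sets, while the 4 other pools lay between -0.078 and 0.20. The remaining Cacna1b probe sets, 1436602_x_at (-0.36 and -0.31) and 1460608_at (-0.30 and -0.44), were lowest in the same 2 arrays by a smaller amount.

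The genotype means of Cacna1b therefore hid the difference between pools. For 1439612_at the p300+/- mean was -0.36 ± 0.73 and the wild-type mean -0.37 ± 0.79 (SD over 3 pools each), which differ by 0.011 with a 95% interval of -1.08 to 1.10. With wild-type 2 left out the value was -0.44, with p300+/- 3 left out it was 0.43, and without both it was -0.027.

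Scn8a, the gene of the sodium channel that predominates at nodes of Ranvier and at the initial segment of mature axons, behaved alike in 3 of its 5 probe sets. Its probe set 1423515_at read 0.0097, -0.0097 and -0.98 in p300+/- pools 1 to 3 and 0.019, -0.97 and 0.12 in wild-type pools 1 to 3. For 1451894_a_at the values were 0.20, 0.11 and -0.70 in p300+/- and 0.26, -0.97 and -0.11 in wild-type pools. In 1439889_at the same 2 arrays were at -0.46 and -0.45. The genotypes overlapped fully in these readings. The log2 fold change of 1423515_at was -0.049 ± 0.36 (SE), and it moved to 0.28 without p300+/- 3 and -0.40 without wild-type 2. The other two Scn8a probe sets did not share this pattern. For 1442208_at the p300+/- pools (-0.20, -0.11 and -0.052) all lay below the wild-type pools (0.16, 0.10 and 0.052), a log2 fold change of -0.23 ± 0.11 (SE), and for 1457412_at, in the lowest signal class, only wild-type 2 was low, at -0.32.

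**Figure D2:**
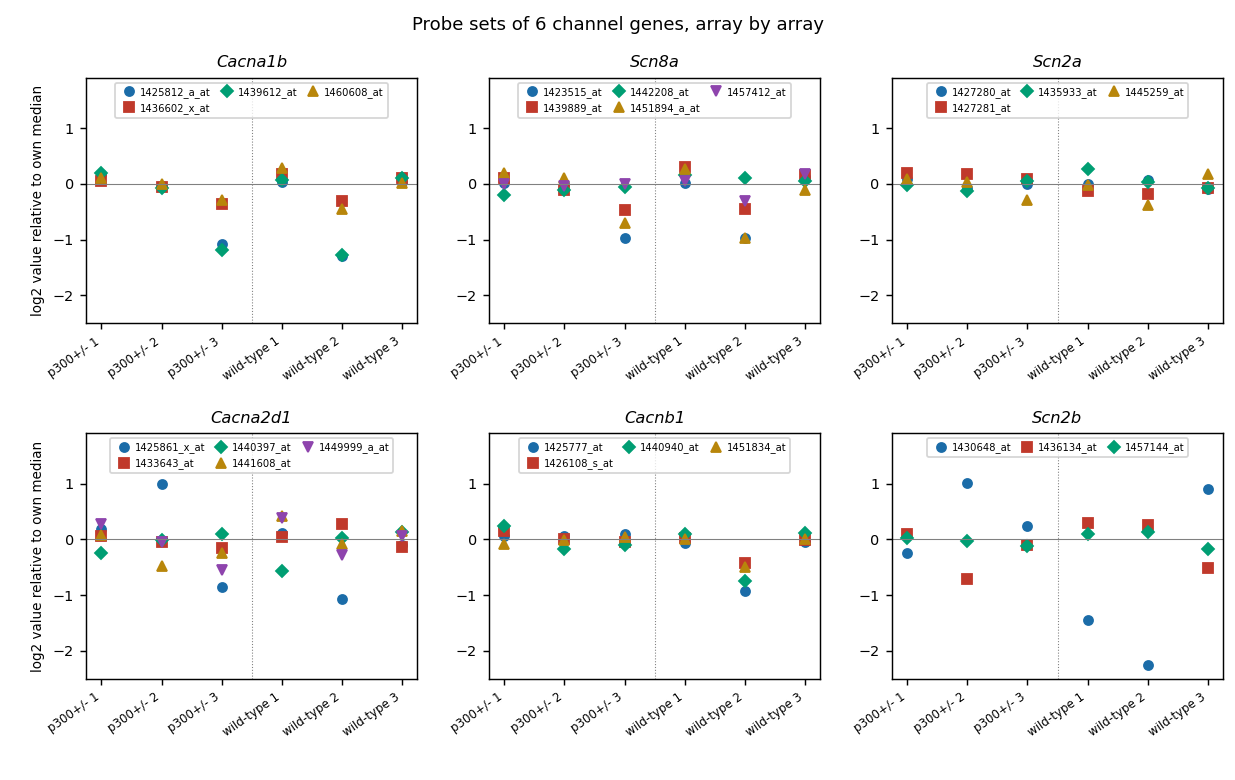
Values of every probe set of 6 channel genes in the 6 arrays, as log2 relative to the probe set's own median (a marker shape and colour for each probe set, p300+/- pools left and wild-type pools right of the dotted line). Cacna1b and most Scn8a probe sets are low in p300+/- 3 and wild-type 2, Cacnb1 is low in wild-type 2, Scn2a stays between -0.38 and 0.26 in all arrays, and 1 Scn2b probe set ranges from -2.26 to 1.02.

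Several measures moved with these arrays, and their part in the result was not tested. The 7 marker genes of hippocampal principal neurons averaged -0.35 in p300+/- 3 and -0.42 in wild-type 2, against -0.013 to 0.16 in the other arrays. Of their 14 probe sets 10 had their 2 lowest values in these arrays and 2 their 2 highest. The lowest was Camk2a, a kinase gene of excitatory neurons, at -1.83 and -2.80 by its probe set 1452453_a_at, though 1457311_at of the same gene was at -0.088 and -0.19 and 1441734_at at 0.075 and -0.0055. The 2 that were highest read Neurod6 (0.12 and 0.20) and Bok (0.21 and 0.084), so the list did not move as one. Other marker lists were not low in both arrays, apart from vessel markers (5 genes), at -0.14 and -0.29 against -0.061 to 0.24 in the other arrays. Markers of GABAergic interneurons (7 genes) averaged 0.22 in p300+/- 3 and 0.041 in wild-type 2, where the other arrays ran from -0.055 to 0.14. Astrocyte markers (6 genes) were at 0.14 and 0.0045, against -0.064 to 0.060, and oligodendrocyte markers (6 genes) at 0.074 and -0.18, against -0.019 to 0.075. By their means, both arrays were above the others in microglial markers (5 genes), at 0.12 and 0.092 against -0.17 to 0.011. Of the 8 microglial probe sets 3 had their 2 highest values there and 2, both of Cx3cr1, their 2 lowest (-1.13 and -0.87 in 1450019_at). The means were also above the others in the 2 blood genes, at 0.38 and 0.16 against -0.15 to -0.014. Neither blood gene showed this alone. Hba-a1 was at -0.099 in p300+/- 3 and 0.11 in p300+/- 1, and Alas2 was at 0.13 in wild-type 2 and 0.17 in p300+/- 2. The means of muscle genes (4 genes) were at 0.083 and 0.12 against -0.098 to -0.0068. Thalamic markers (5 genes) were at 0.17 and -0.059, against -0.037 to 0.11. Choroid plexus markers (5 genes) were at 0.27 in p300+/- 3 and, as above, far lower in wild-type 2. In pooled tissue, fewer cells of a type and less RNA per cell cannot be told apart. The hybridization controls, transcripts added at a fixed amount before hybridization, were highest in the same arrays, at 0.45 and 0.23, against -0.89 to -0.0081 in the others. The poly-A controls, another set of added transcripts, were not. They were at 0.12 and 0.57, with wild-type 3 highest at 1.02 and the other arrays from -0.45 to -0.13. The readings of the 5′ end of the actin control minus its 3′ end were 0.094 and -0.20, against -0.066 to 0.12 in the other arrays, and those of the Gapdh control were 0.097 and -0.011, against -0.055 to 0.049. The limma array weights of p300+/- 3 and wild-type 2 were the lowest, at 0.580 and 0.379, with 0.989 to 3.18 for the others.

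**Figure D3:**
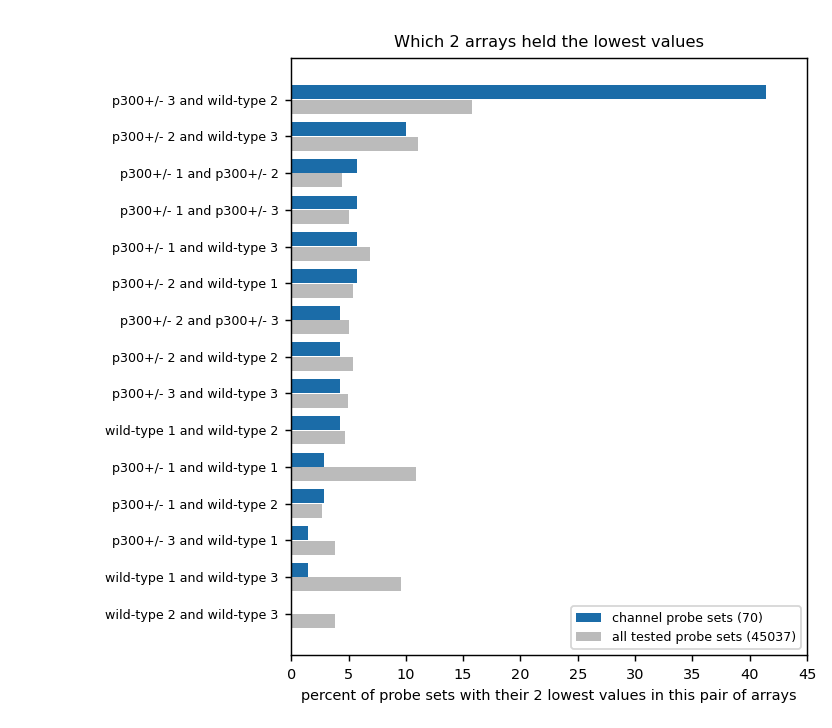
Share of probe sets (horizontal axis, percent) that had their 2 lowest values in each of the 15 pairs of arrays, for the 70 channel probe sets (blue) and all 45037 tested probe sets (grey). P300+/- 3 with wild-type 2 leads in both, with 41.4% of channel and 15.8% of all probe sets.

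The promoters of 3 channel genes are shown because the results turned on these genes. All 4 probe sets of Cacna1b, 3 of 5 of Scn8a and 1 of 4 of Scn2a had their 2 lowest values in p300+/- 3 and wild-type 2, and another Scn2a probe set had the smallest unadjusted p. They come from RefSeq (GRCm38.p6), which held 30 transcription starts of 21 of the 27 genes, and cover the 250 bases before the most upstream start listed, 5′ to 3′ along the gene. Capitals mark GC boxes (GGGCGG on either strand) and the core of the cAMP response element, TGACG on either strand, which CREB binds. The Cacna1b stretch is chr2:24763153-24763402 on the minus strand, that of Scn8a chr15:100870395-100870644 on the plus strand, and that of Scn2a chr2:65620519-65620768 on the plus strand.
Cacna1b: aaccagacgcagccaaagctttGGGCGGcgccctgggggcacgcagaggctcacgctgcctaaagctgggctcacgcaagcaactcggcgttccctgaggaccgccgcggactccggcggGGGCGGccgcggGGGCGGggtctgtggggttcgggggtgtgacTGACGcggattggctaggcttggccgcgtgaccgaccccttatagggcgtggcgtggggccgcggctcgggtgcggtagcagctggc
Scn8a: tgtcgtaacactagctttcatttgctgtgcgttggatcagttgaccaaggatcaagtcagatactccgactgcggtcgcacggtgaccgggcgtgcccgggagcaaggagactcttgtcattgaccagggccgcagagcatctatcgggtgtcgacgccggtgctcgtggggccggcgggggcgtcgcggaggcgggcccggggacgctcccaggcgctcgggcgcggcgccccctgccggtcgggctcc
Scn2a: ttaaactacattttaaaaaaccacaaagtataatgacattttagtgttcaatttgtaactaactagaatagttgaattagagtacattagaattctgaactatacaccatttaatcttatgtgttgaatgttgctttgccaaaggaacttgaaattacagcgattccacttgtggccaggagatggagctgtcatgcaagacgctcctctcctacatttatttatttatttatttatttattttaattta
The Cacna1b stretch held 3 GC boxes and 1 such core, with a GC content of 72.0%. Scn8a, at 68.0% GC, and Scn2a, at 29.6% GC, held neither. Over all 30 channel windows GC boxes were in 12 (40.0%), against 32.7% of the 32851 windows in the table, and the TGACG core was in 5 (16.7%, against 17.8%). The full element TGACGTCA was in 0 of the 30 and in 1.55% of all windows. The left part of the RE1 element that REST binds, TTCAGCACC on either strand, was likewise in 0 of the 30, against 0.301% of all. These matches describe letters in a window and are not sites.

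High-voltage-activated alpha1 genes had 8 probe sets with higher and 8 with lower values in p300+/- pools, a median log2 fold change of -0.0020 and a range from -0.26 to 0.19. Cacna1a, the P/Q-type channel that drives release at most central synapses, was read by 4 probe sets. Its probe set 1459996_at read -0.12, -0.029 and -0.038 in p300+/- and 0.47, 0.029 and 0.090 in wild-type pools. The genotypes did not overlap, but the gap to the lowest wild-type pool was narrow, and the log2 fold change was -0.26 ± 0.15 (SE), or -0.12 with wild-type 1 left out. The probe set with the widest range of the gene, 1430408_at, read 1.00, -0.13 and -0.36 in p300+/- and 0.77, -0.97 and 0.13 in wild-type pools, with a log2 fold change of 0.19 ± 0.49. The values of 1450510_a_at were 0.20, -0.20 and -0.31 in p300+/- and 0.36, -0.80 and 0.39 in wild-type pools, again with wild-type 2 lowest. The remaining probe set was at 0.088.

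The L-type genes Cacna1c and Cacna1d, the main L-type channels of neurons, leaned lower in 3 of 4 probe sets without passing. Cacna1c 1435730_at read 0.20, -0.19 and -0.56 in p300+/- and 0.19, -0.21 and 0.26 in wild-type pools, and its fold change on the log2 scale was -0.26 ± 0.22 (SE; 95% interval -0.77 to 0.25). For 1421297_a_at it was -0.037. Cacna1d 1427974_s_at read 0.18, -0.097 and -0.37 in p300+/- and 0.17, -0.16 and 0.097 in wild-type pools, at -0.13 ± 0.17, while 1428051_a_at was at 0.16. In 1435730_at and 1427974_s_at p300+/- 1 and wild-type 1 were among the high pools, and the genotypes overlapped in all 4 probe sets. The lean depended on the arrays used. Without p300+/- 3 the values were -0.072 (1435730_at), 0.12 (1421297_a_at), 0.0076 (1427974_s_at) and 0.33 (1428051_a_at). Without wild-type 2 they were -0.41, -0.24, -0.23 and -0.062, in the same order.

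Cacna1e, the R-type channel of dendrites and spines, gave -0.17 and 0.18 in its 2 probe sets, the second of which was in the lowest signal class. Cacna1f, known from photoreceptors, read -0.054, 0.088 and 0.29 in p300+/- and -0.056, 0.054 and -0.19 in wild-type pools, at 0.17 ± 0.14 (SE). Cacna1s, the skeletal muscle channel, was at 0.094 ± 0.17. Cacna1f and Cacna1s were the only high-voltage-activated genes besides Cacna1a with their highest value in p300+/- 3 for any probe set.

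The T-type genes encode low-voltage-activated channels that support burst firing. Cacna1g read 0.052, -0.052 and -0.21 in p300+/- and 0.24, -0.29 and 0.29 in wild-type pools, a difference of -0.15 ± 0.18 (SE). For Cacna1h 1422710_a_at the values were 0.17, -0.15 and -0.30 in p300+/- and 0.15, -0.71 and 0.23 in wild-type pools, at 0.021 ± 0.26. Both were lowest in wild-type 2 and next lowest in p300+/- 3. The other Cacna1h probe set, 1427607_at, had its highest value in wild-type 2 (0.018, -0.095 and -0.020 in p300+/-, then -0.018, 0.22 and 0.095) and was at -0.13 ± 0.12.

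Alpha2delta subunits are membrane-anchored proteins outside the cell that traffic calcium channels, and gabapentin binds those encoded by Cacna2d1 and Cacna2d2. Of the 12 probe sets 4 were higher and 8 lower, with a median log2 fold change of -0.018. The 5 probe sets of Cacna2d1 ran from -0.38 to 0.47. At the lower end, 1441608_at read 0.079, -0.48 and -0.24 in p300+/- and 0.42, -0.079 and 0.16 in wild-type pools, -0.38 ± 0.19 (SE) with a 95% interval of -0.82 to 0.060. At the upper end, 1425861_x_at read 0.19, 1.00 and -0.86 in p300+/- and 0.10, -1.07 and -0.10 in wild-type pools, 0.47 ± 0.48. The latter was low in p300+/- 3 and wild-type 2 and also high in p300+/- 2, and without p300+/- 2 it was at 0.023. Another probe set, 1433643_at, varied less (0.059, -0.047 and -0.16, then 0.047, 0.27 and -0.14) and was at -0.11 ± 0.14. The 2 not listed array by array were at -0.16 and 0.090.

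Among the other alpha2delta genes, Cacna2d2 had 1 probe set with a wide range. Cacna2d2 1450754_at read 0.031, 0.13 and -0.24 in p300+/- and -0.031, -0.69 and 0.20 in wild-type pools, a range of 0.895 beside a median of 0.629 over all members. Its log2 fold change was 0.15 ± 0.24 (SE), or -0.11 without wild-type 2, the lowest pool. The probe set 1451955_a_at was at -0.022 ± 0.12. The first of the gene, 1426185_at, in the lowest signal class, was highest in p300+/- 3 and wild-type 2 and read -0.0044, -0.15 and 0.21 in p300+/- and -0.046, 0.14 and 0.0044 in wild-type pools. Cacna2d3 was at -0.068 ± 0.12, with a range of 0.316. Cacna2d4 1442863_at read 0.019, -0.13 and -0.072 in p300+/- and -0.019, 0.17 and 0.17 in wild-type pools, at -0.17 ± 0.12, and 1441084_at read -0.017, -0.0040 and 0.0040, then 0.013, 0.093 and -0.24, at 0.038 ± 0.12. Cacna2d4 1457703_at had the narrowest range over arrays of all members, 0.17.

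Calcium channel beta subunits bind the pore from inside the cell. Of 9 probe sets 5 were higher and 4 lower, with a median log2 fold change of 0.14, and the Cacnb1 values rested on wild-type 2. Cacnb1 1425777_at read 0.068, 0.054 and 0.093 in p300+/- and -0.071, -0.93 and -0.054 in wild-type pools, so that the genotypes did not overlap. Its log2 fold change was 0.42 ± 0.24 (SE), or 0.13 without wild-type 2. The probe set 1426108_s_at gave 0.14, 0.0043 and -0.055 in p300+/- and 0.029, -0.43 and -0.0043 in wild-type pools, and 1451834_at gave -0.091, -0.0037 and 0.033, then 0.0037, -0.49 and 0.0095. With the fourth, 1440940_at (-0.75 in wild-type 2), all Cacnb1 probe sets were low in that pool and none was that low in p300+/- 3. Without wild-type 2 the 4 values ran from -0.11 to 0.13.

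Cacnb2 followed the pattern of Cacna1b. Its probe set 1452476_at read -0.011, 0.51 and -0.60 in p300+/- and 0.011, -0.84 and 0.32 in wild-type pools, at 0.14 ± 0.36 (SE), and 1456401_at was at -0.52 and -0.35 in p300+/- 3 and wild-type 2. Cacnb4, the beta subunit altered in the lethargic mouse, was lower in p300+/- pools in all 3 probe sets, none near the threshold. Cacnb4 1436912_at read -0.36, 0.37 and -0.35 in p300+/- and 0.18, -0.18 and 0.38 in wild-type pools, at -0.24 ± 0.24. Its probe set 1428928_at was highest in wild-type 2 (-0.15, 0.0091 and 0.20, then -0.0091, 0.49 and -0.039) and 1452089_at was lowest there (0.13, 0.056 and -0.28, then 0.85, -0.48 and -0.056), at -0.13 ± 0.18 and -0.14 ± 0.32. Probe sets of this gene thus moved in opposite directions in the same pool.

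**Figure D4:**
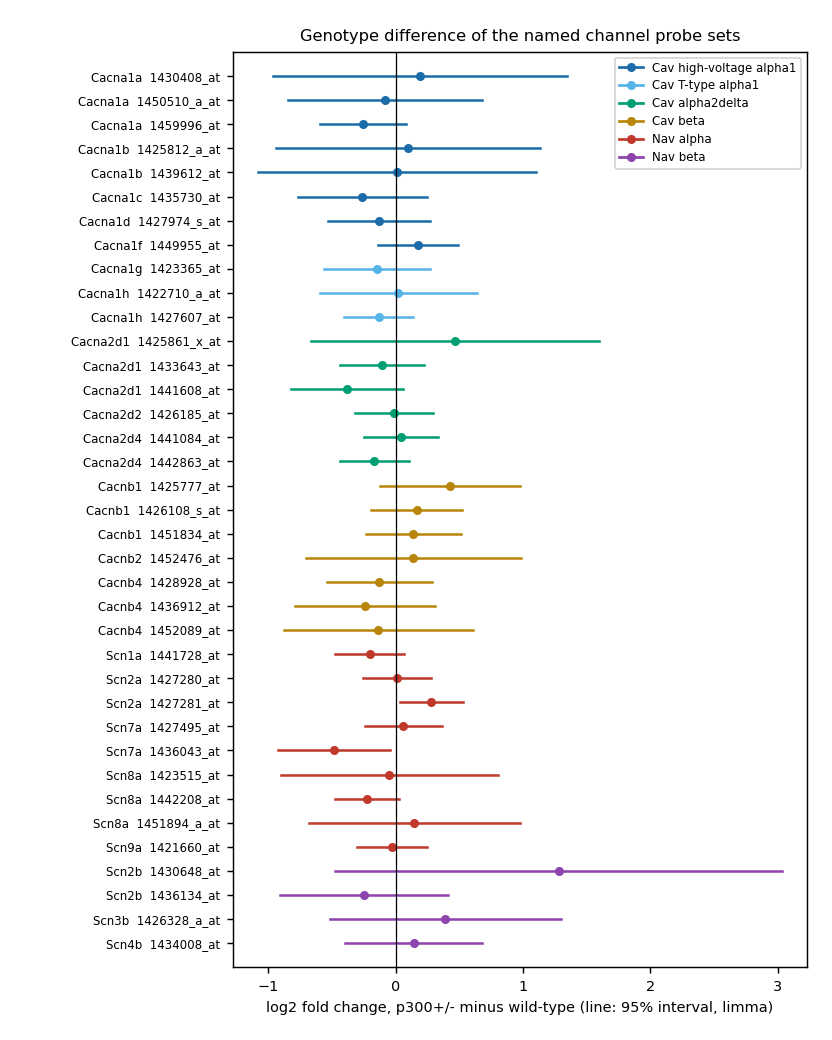
Log2 fold change, p300+/- minus wild-type (point), with its 95% interval from limma (line), for the 37 probe sets named by rule, coloured by subfamily. Only the intervals of Scn2a 1427281_at (0.032 to 0.53) and Scn7a 1436043_at (-0.93 to -0.047) exclude 0 before adjustment, and neither passes after it.

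Sodium channel alpha genes had 8 probe sets with higher and 16 with lower values in p300+/- pools, a median log2 fold change of -0.051 and a range from -0.49 to 0.28. Scn2a, the channel of the initial segment and of unmyelinated axons of excitatory neurons, had the smallest unadjusted p of all members. Its probe set 1427281_at read 0.19, 0.18 and 0.082 in p300+/- and -0.13, -0.18 and -0.082 in wild-type pools. All p300+/- pools lay above all wild-type pools, at 0.15 ± 0.058 against -0.13 ± 0.048 (SD, n = 3), a log2 fold change of 0.28 ± 0.11 (SE), or 1.21-fold with a 95% interval of 1.02 to 1.44 (limma, unadjusted p = 0.0315, adjusted p = 0.9999). It stayed between 0.26 and 0.31 with any 1 array left out.

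The other Scn2a probe sets did not repeat this value. In the same signal class, 1427280_at read 0.092, -0.081 and 0.0028 in p300+/- and -0.0028, 0.073 and -0.085 in wild-type pools, at 0.0094 ± 0.11 (SE) with a 95% interval of -0.25 to 0.27. Those of 1435933_at and 1445259_at were -0.10 ± 0.13 and 0.015 ± 0.18. Scn2a 1445259_at alone of the 4 was lowest in wild-type 2 and p300+/- 3, at -0.38 and -0.30.

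Scn7a, which encodes a sodium-level sensor of glia and some neurons that is not gated by voltage in the usual way, gave the largest decrease by size. Its probe set 1436043_at read -0.40, -0.022 and -0.32 in p300+/- and 0.022, 0.60 and 0.093 in wild-type pools, at -0.25 ± 0.20 against 0.24 ± 0.32 (SD, n = 3). The groups were next to each other at -0.022 and 0.022, and the log2 fold change was -0.49 ± 0.19 (SE; limma, unadjusted p = 0.0342, adjusted p = 0.9999), or -0.30 without wild-type 2. The probe set 1436044_at leaned the same way at -0.28 ± 0.23, with wild-type 2 at 0.73 and p300+/- 3 at 0.26, and 1427495_at did not (-0.063, -0.0058 and 0.28, then 0.0058, 0.058 and -0.026), at 0.058 ± 0.13. Wild-type 2 was the highest pool in the former pair of probe sets, where it was the lowest in many other members.

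Scn1a, the channel on which fast-spiking interneurons depend, was lower in p300+/- pools in all 3 probe sets by small amounts. Scn1a 1441728_at read -0.071, -0.25 and -0.025 in p300+/- and 0.079, 0.025 and 0.16 in wild-type pools, so that the genotypes did not overlap, at -0.21 ± 0.12 (SE). The others were at -0.060 ± 0.29 (1450120_at) and -0.062 ± 0.17 (1450121_at). Both changed sign with an array left out, running from -0.26 to 0.23 and from -0.20 to 0.11. Of these, 1450120_at was high in p300+/- 1 (0.51) and wild-type 1 (0.74), and 1450121_at was high in wild-type 2 (0.44).

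Scn3a, which is most abundant before birth, gave -0.31 ± 0.23 (SE) in 1439204_at, with p300+/- 1 at -0.56 and wild-type 2 at 0.52, and 0.0051 ± 0.15 in 1421705_at. The channels of peripheral sensory neurons varied little. All 5 probe sets of Scn9a were in the lowest signal class and between -0.16 and -0.021, and its first, 1421660_at, read -0.063, 0.14 and -0.11 in p300+/- and -0.038, 0.038 and 0.050 in wild-type pools. Scn10a, also in the lowest class, was at -0.098 ± 0.12, and Scn11a was at 0.080 ± 0.13.

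Sodium channel beta genes held the member with the widest range over arrays. Scn2b, whose protein is linked to the alpha subunit by a disulfide bond, read -0.24, 1.02 and 0.24 in p300+/- and -1.45, -2.26 and 0.89 in wild-type pools by its probe set 1430648_at. The range was 3.28, with wild-type 1 and 2 low, wild-type 3 and p300+/- 2 high and the genotypes overlapping. The log2 fold change of 1.28 ± 0.75 (SE) was the largest of any member, with a 95% interval of -0.47 to 3.03, and it ran from 0.62 without wild-type 2 to 2.20 without wild-type 3. The other Scn2b probe sets did not show this, and where it was highest 1436134_at was lowest (0.097, -0.71 and -0.097 in p300+/-, 0.30, 0.26 and -0.52 in wild-type pools), at -0.25 ± 0.28. The last, 1457144_at, stayed between -0.18 and 0.14. The control probe sets for 18S ribosomal RNA also were lowest in p300+/- 2 and wild-type 3, at -1.32 and -1.11 against -0.19 to 0.57 in the other arrays, and their part in the Scn2b values was not tested.

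Scn3b and Scn4b were low in p300+/- 3 and wild-type 2. Scn3b 1426328_a_at read 0.12, 0.57 and -0.64 in p300+/- and -0.079, -1.11 and 0.079 in wild-type pools, at 0.39 ± 0.39 (SE), or 0.018 without wild-type 2. Its other probe set was at -0.074 ± 0.14. Scn4b, a subunit tied to resurgent sodium current, read 0.083, 0.23 and -0.34 in p300+/- and -0.083, -0.56 and 0.20 in wild-type pools, at 0.14 ± 0.23. In neither gene did the genotypes separate.

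Genes that anchor or regulate these channels also did not pass. Of 67 listed partners 60 were measured by 165 probe sets, of which 0 passed an adjusted p of 0.05 (limma) and 3 had an unadjusted p under 0.05 (1.22% of all probe sets), 1 higher and 2 lower. Values were higher in p300+/- for 72 and lower for 93, with a median of -0.030, and the genotypes did not overlap in 9 (4 higher and 5 lower). That is 5.45% of the partner probe sets, near the 5.39% of all. The smallest p belonged to Cacng8, an auxiliary subunit of AMPA receptors named for its kinship to calcium channel gamma subunits, at 0.54 ± 0.17 (SE), with wild-type 2 and 3 at -0.50 and -0.63 and wild-type 1 at -0.043. Its other probe set, 1459579_at, was at -0.10. Snap25, a SNARE protein that N- and P/Q-type channels bind, was at -0.35 ± 0.14 in 1447763_at but 0.046 ± 0.13 in 1416828_at, of a higher signal class. The calcium sensor gene Ncs1 was also mixed. It was at -0.46 ± 0.19 in 1434887_at, of the class from 8 to 16, but 0.22 and 0.24 in probe sets of the class from 4 to 8. Cacng3 was at 0.41 ± 0.19. The calcium buffer gene Calb1 was at -0.36 ± 0.17 in 1448738_at, and its other probe sets were at -0.38, -0.067 and 0.094. The active zone scaffold gene Pclo was at -0.24 ± 0.12 in 1452423_at and at -0.18 and -0.12 in its other probe sets.

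By group, 3 of the 8 partner lists were low in both p300+/- 3 and wild-type 2 relative to every other array. The anchors of the initial segment and node (10 genes, Ank3 and Nfasc among them) averaged -0.27 and -0.28, against -0.017 to 0.12 in the other arrays. Genes of sodium channel turnover and signalling (6 genes) were at -0.27 and -0.30, against 0.025 to 0.097, and active zone and release genes (15 genes) at -0.20 and -0.22, against 0.027 to 0.15. The remaining lists did not share this. FGF homologous factors, which bind sodium channel tails (4 genes), were at -0.046 and -0.0060, against -0.057 to 0.11, and gamma subunits (8 genes) at 0.055 and -0.17, against -0.071 to 0.078. The list of calmodulin and calcium sensors (7 genes measured, no calmodulin gene among them) was at 0.046 and -0.0060, against 6.2e-05 to 0.0100. The RGK and Stac regulators (7 genes) were at 0.074 and -0.043, against -0.12 to 0.025, and the sodium leak channel complex (3 genes) at -0.12 and 0.093, against -0.065 to 0.054. The median log2 fold change between genotypes was -0.039 for anchors, -0.059 for turnover and signalling and -0.025 for active zone genes. It was -0.13 for FGF homologous factors, 0.11 for gamma subunits and 0.013 for the measured genes of the sensor list. For RGK and Stac regulators it was 0.036, and for the leak complex -0.13.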

How the data were processed

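Hippocampal RNA pools of 4 animals, 3 per genotype, were hybridized to Affymetrix mouse genome arrays. Per the labels' protocols the authors processed and normalized the data in GeneSpring GX. Their version, summarization and filters are not stated in the sources. The deposited log2 values were centred by probe set, since the median of every probe set's 6 values was 0 within 5e-07. No source gives the base of the logarithm, which was taken as 2, so directions do not depend on it but folds do. A coarse signal class was read from the binary grid of the stored values. The assignment was right for 99.3% of 17904 simulated probe sets whose values all lay within a single class. Simulated probe sets that crossed a class bound were not scored, and the simulated spread between arrays was not taken from these data.

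Genes were named through the platform annotation and gene identifiers matched to RefSeq (GRCm38.p6). With 64 control probe sets set aside, 34945 had a single symbol and all 70 members matched. limma 3.58.1 in R 4.3.3 (lmFit, eBayes) compared p300+/- with wild-type over all 45037 probe sets, two-sided, with Benjamini-Hochberg adjustment, a threshold of 0.05 and no covariates. The fit was tested on simulated data with noise independent between arrays and added changes larger than most channel differences. It therefore does not show how well differences of the size seen here would be found. Precision was limited by the number of arrays. Figures were drawn with matplotlib 3.10.9.

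Probe sets were listed array by array by rule: the 4 with the smallest p in each subfamily, the 10 with the widest range, the first of each gene with 3 or more probe sets, and the 3 most changed per direction without overlap. This gave 37, and other probe sets and the partners beyond the 6 with the smallest p were chosen after their values were seen. The members, the partner and marker lists and the alternatives were chosen with earlier results of these data known. Marker and partner group values are means over genes of the mean over a gene's probe sets. Alternatives covered normalization, centring, moderation, weights, a replicate block, ambiguous and dim probe sets, symbols, the threshold and left-out arrays.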

Additional observations from a re-analysis of the deposited data

How the results depend on the processing

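No channel or partner probe set passed under any of the 16 alternatives, nor did any of all probe sets, and the lowest adjusted p of a channel probe set in any limma fit was 0.974. The count of channel probe sets without overlap, 6, ran from 8 to 14 with an array left out and was 22 without both p300+/- 3 and wild-type 2, where fewer arrays make such separation easier. The count at an unadjusted p under 0.05, 2, ran from 1 to 3 with an array left out and was 4 with array weights. The median log2 fold change, -0.024, ran from -0.11 without wild-type 2 to 0.0067 without p300+/- 3. The numbers do not pair the samples: deviations of same-numbered arrays correlated at 0.609, -0.230 and -0.468, and not every array correlated best with its own number. The arrays did match across genotypes in another order. Deviations correlated at 0.648 for p300+/- 3 with wild-type 2 and at 0.369 for p300+/- 2 with wild-type 3. Together with p300+/- 1 and wild-type 1 (0.609), these were the best matches of every array, and their cause was not tested. With the replicate block, which followed the numbers and not these matches, the count at an unadjusted p under 0.05 was again 2 and 0 passed. Of the 37 listed probe sets, 18 changed sign in at least 1 fit with an array left out, and their log2 fold changes ran from -0.28 to 0.59 for Cacna1a 1430408_at, -0.48 to 0.12 for Cacna1a 1450510_a_at, -0.35 to 0.48 for Cacna1b 1425812_a_at, -0.44 to 0.43 for Cacna1b 1439612_at, -0.27 to 0.0076 for Cacna1d 1427974_s_at, -0.28 to 0.19 for Cacna1h 1422710_a_at, -0.11 to 0.069 for Cacna2d2 1426185_at, -0.058 to 0.11 for Cacna2d4 1441084_at, -0.027 to 0.22 for Cacnb1 1451834_at, -0.20 to 0.42 for Cacnb2 1452476_at, -0.22 to 0.041 for Cacnb4 1428928_at, -0.43 to 0.24 for Cacnb4 1452089_at, -0.035 to 0.052 for Scn2a 1427280_at, -0.068 to 0.31 for Scn4b 1434008_at, -0.047 to 0.13 for Scn7a 1427495_at, -0.40 to 0.28 for Scn8a 1423515_at, -0.20 to 0.43 for Scn8a 1451894_a_at and -0.10 to 0.022 for Scn9a 1421660_at. With array weights the sign turned to -0.17 for Cacna1a 1430408_at, -0.071 for Cacna1b 1425812_a_at, -0.14 for Cacna1b 1439612_at, -0.13 for Cacna1h 1422710_a_at, 0.0023 for Cacna2d2 1426185_at, -0.083 for Scn8a 1451894_a_at and 0.017 for Scn9a 1421660_at. With quantile normalization the sign turned to -0.065 for Cacna1b 1439612_at and -0.077 for Cacna1h 1422710_a_at. Without both p300+/- 3 and wild-type 2 the sign turned to -0.017 for Cacna1a 1430408_at, -0.027 for Cacna1b 1439612_at, -0.18 for Cacna1h 1422710_a_at, 0.051 for Cacna2d1 1433643_at, -0.054 for Cacnb1 1451834_at, -0.025 for Scn7a 1427495_at and 0.033 for Scn9a 1421660_at. The cause of these turns was not tested. Median centring, trend and robust moderation, and leaving out the lowest class or ambiguous probe sets turned none of the listed signs. Signal over background is not given, so dim probe sets could only be judged by class.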
